A study of Mus musculus with 9 samples.

Results

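The 38 genes described here encode guidance cues and their receptors: 9 EphA receptors, 5 EphB receptors, 5 ephrin-A ligands, 3 ephrin-B ligands, 3 Slit ligands, 4 Robo receptors, 3 netrins (Ntn1, Ntn4 and Ntn5) and 6 netrin receptors (Dcc, Neo1 and Unc5a to Unc5d). They are the protein-coding genes of the deposited table whose symbols carry these family names, and make up 38 of its 54532 genes, 22046 of which are protein-coding. Ntn3 was not analysed here.

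The libraries are RNA-seq of bulk tissue from the lambdoidal junction, where the maxillary and both nasal prominences of the face meet and fuse into the upper lip and primary palate. All embryos were C57BL/6J mice, with no treatment or genotype named, at embryonic day 10.5 (E10.5), E11.5 or E12.5. There were 3 libraries for each of the 3 stages, each made from pooled embryos, so the spread between libraries is that between pools and not between embryos. A stage differs from the next in age and in everything that comes with age, and in tissue dissected whole, fewer cells of a type and less RNA per cell cannot be told apart.

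Ephs are receptor tyrosine kinases whose ephrin ligands sit in the membrane of the neighbouring cell, so that both cells receive a signal on contact, and the usual outcome is repulsion or the sorting of cell populations at a boundary. Ephrin-A ligands are held by a lipid anchor and bind mainly EphA receptors, while ephrin-B ligands span the membrane and bind mainly EphB receptors and Epha4. Slits are secreted proteins that repel cells and axons through Robo receptors, and netrins are laminin-related secreted proteins that attract through Dcc and neogenin or repel through the Unc5 receptors. In the face, ephrin-B1 is known from human craniofrontonasal syndrome, and Eph signalling guides migrating neural crest cells.

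The 9 libraries held 16581009 to 20836804 counts each. E10.5 replicate 3 stood apart from the other libraries of its stage. The correlation across genes of its deviation from the mean with GC content was -0.546, against 0.438 and 0.469 in E10.5 replicates 1 and 2. Its summed level of 11 endothelial markers, in counts scaled to library size (CPM), was 149, against 406 and 426 in the other E10.5 libraries, and for 13 markers of facial mesenchyme 1610, against 3167 and 3187. Its 12 epithelial markers summed to 901 CPM, against 492 and 559, and its 14 forebrain and eye markers to 456 CPM, the highest of the 9 libraries. The fits, counts and medians of the members and of the partner and marker lists that use E10.5 were also computed without this library. Medians of single families are given with this library included.

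The marker lists also moved with stage. The summed level of the facial mesenchyme list was 1610 to 3187 CPM in the E10.5 libraries, 4973 to 5560 CPM one day later and 6133 to 7225 CPM at E12.5, so that the stages did not overlap, and 5 of its 13 genes, Pdgfra, Msx1, Col1a1, Col1a2 and Col3a1, were upregulated in E11.5 vs. E10.5, or 3 of them (Pdgfra, Col1a1 and Col1a2) without E10.5 replicate 3. Markers of forebrain and eye neuroepithelium, a tissue next to the nasal prominences, summed to 339 to 456 CPM in the earliest stage, 109 to 114 CPM at E11.5, where Otp was at 0, and 132 to 179 CPM at E12.5, and 10 of these 14 genes were downregulated in E11.5 vs. E10.5 with and without E10.5 replicate 3. The 12 neuron markers summed to 282 to 336, 324 to 344 and 455 to 519 CPM at the 3 stages, and the 6 glia and Schwann cell precursor markers to 64.5 to 81.4, 82 to 89.1 and 89 to 122 CPM. The 11 endothelial markers summed to 393 to 394 CPM at E11.5 and 371 to 432 CPM at E12.5. The 12 epithelial markers summed to 492 to 901, 535 to 550 and 793 to 868 CPM, and the 10 red blood cell markers to 3546 to 4764, 5396 to 5738 and 4557 to 5910 CPM. The epithelial genes called in E12.5 vs. E11.5 were Krt5 (34.5 to 151 CPM), Krt14 (31.3 to 157 CPM) and Krt15 (8.98 to 29.4 CPM). Over the whole span these rose, Krt18 was downregulated, and the median log2 fold change of the epithelial list was -0.17. Without E10.5 replicate 3 that median was 0.18, Grhl3 was also upregulated and Krt18 was not called. The defining mesenchymal, epithelial, endothelial and neuronal markers were thus detected at every stage, and the part of these shifts in the changes described below was not tested.

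**Figure D1:**
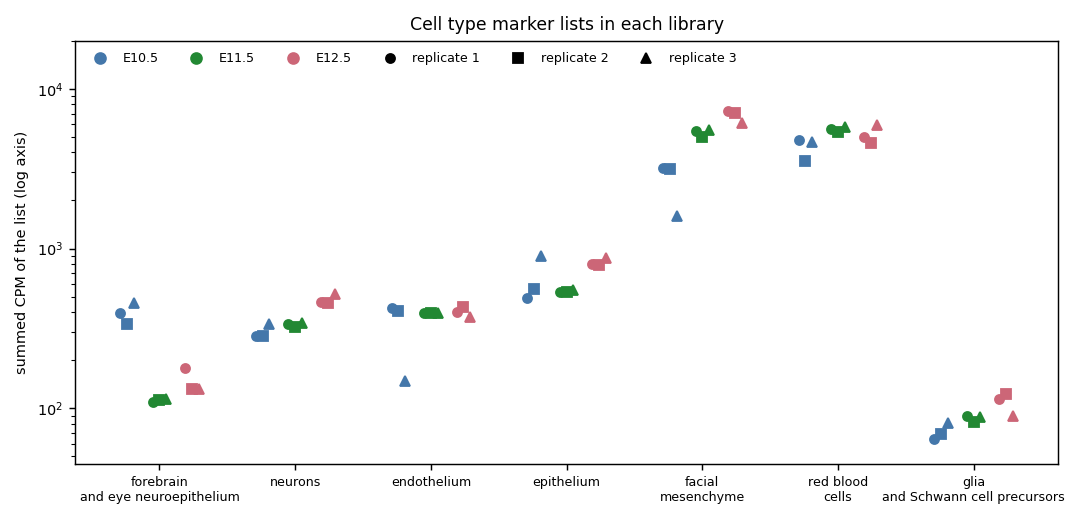
Summed CPM of each cell type marker list in each of the 9 libraries, on a log axis, coloured by stage, with the replicate number as the symbol. Facial mesenchyme markers lie higher at each later stage, forebrain and eye markers lie highest at E10.5 (339 to 456 CPM), and E10.5 replicate 3 lies low in endothelium (149 CPM) and mesenchyme (1610 CPM).

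Every one of the 38 genes had at least 1 count in each of the 9 libraries. For comparison between genes, levels are given as CPM per kilobase of the deposited gene length, as the mean of 3 libraries. Among the receptors, Ephb4, the partner of ephrin-B2 in blood vessels, had the highest level, with 47, 60.1 and 57.2 CPM per kilobase at the 3 stages in order. The netrin receptors Neo1 (22.2, 27.5 and 23.5) and Unc5b (20.2, 24.9 and 16.4) and the receptors Epha4 (15, 28.6 and 29.6), Ephb3 (15.4, 24.7 and 29) and Robo1 (9.89, 19.2 and 15.6) are given on the same scale and in the same order of stages. Ephb2 (10.8, 9.89 and 9.53) lay above Robo1 at E10.5 and below it later. In all 3 stages the highest means were those of Epha4 among EphA, Ephb4 among EphB, Robo1 among Robo and Neo1 among netrin receptors.

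Most ephrins lay in the same range, with Efna2 at 38.3 to 40.7 CPM per kilobase over the stage means, Efna4 at 26.9 to 41.4, Efnb1 at 23.2 to 49.1, Efnb2 at 23.4 to 29.5 and Efnb3 at 17.3 to 30.5. Efna5 had 12.7 to 24.2, Efna1 7.24 to 16.4 and Efna3 0.928 to 4.47 CPM per kilobase. Of the secreted cues, Ntn1, the netrin that guides commissural axons, had 7.99, 4.86 and 6.36 CPM per kilobase, Slit2 had 2.83 to 3.19 over the stage means and Slit3 rose from 2.99 to 7.33. At the low end, Slit1, Epha5, Epha6, Epha10, Robo3, Ntn5 and Dcc stayed at or below 0.578 CPM per kilobase in every stage mean. The order of genes on this scale depends on the deposited length. Slit2, of 25433 bases against 6067 for Slit3, was the higher in CPM at each stage (75, 81.2 and 72 against 18.1, 33.6 and 44.5). Epha5, of 16739 bases, had a mean of 7.02 CPM at E12.5, beside 6.6 CPM for Epha8.

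**Figure D2:**
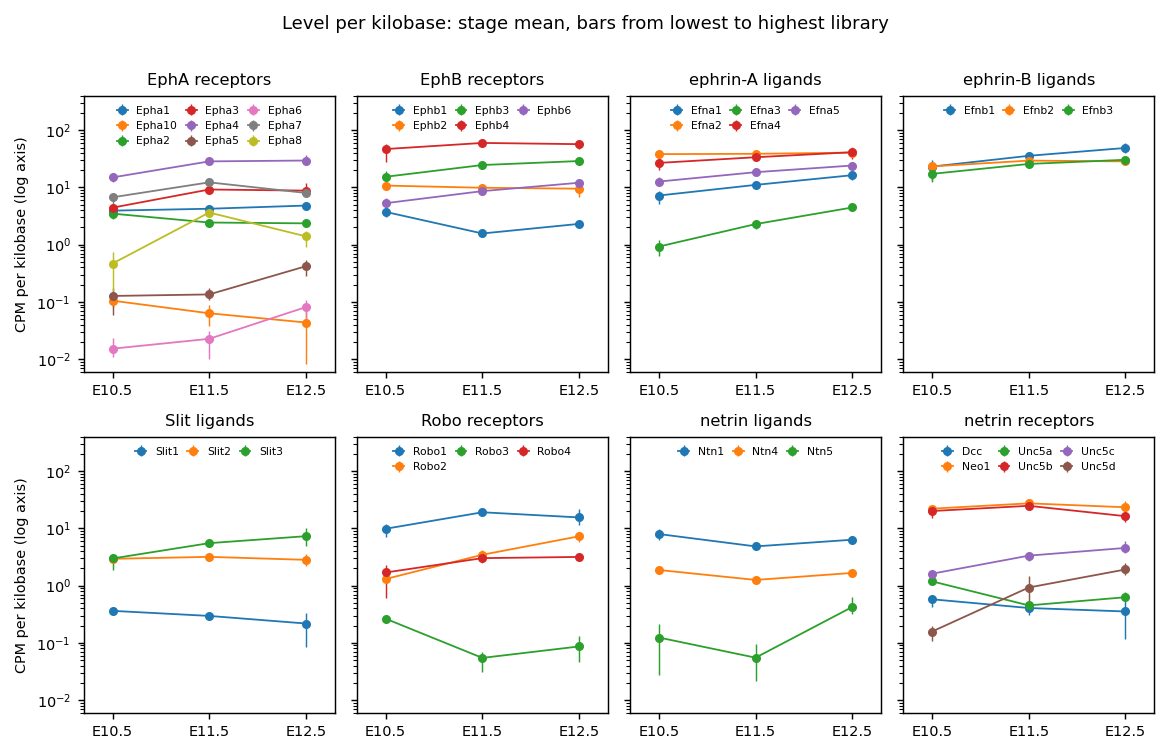
Mean level per kilobase of gene length (CPM per kilobase, log axis) of the 38 genes at each stage, 1 panel per family, with bars from the lowest to the highest of the 3 libraries. Ephb4 and Neo1 lie at the top of their panels, Efna3 lies lowest of the ephrins, and Epha6, Epha10, Ntn5 and Robo3 lie below 1.

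Not every gene could be tested. Of the 38 genes, 36 passed the filter on low counts in the first interval (E11.5 vs. E10.5), 35 in the second (E12.5 vs. E11.5) and 36 over the whole span (E12.5 vs. E10.5), and 37 passed in the fit of all 9 libraries. Epha6, an EphA receptor best known from the nervous system, passed in none. It had 1, 1 and 2 counts in the E10.5 libraries, 3, 3 and 1 at E11.5 and 10, 9 and 4 at E12.5. Summed over libraries, the ratio of E12.5 to E10.5 was 5.44, with an exact 95% interval of 1.86 to 21.6 that covers counting error only, and without E10.5 replicate 3 it was 7.38 (1.82 to 64.6). Epha10, a receptor without kinase activity, had 16, 13 and 9 counts at E10.5, 5, 13 and 9 at E11.5 and 9, 7 and 1 at E12.5, and was tested only in E11.5 vs. E10.5, where its log2 fold change was -0.71 ± 0.44 (SE, adjusted p = 0.337).

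Over the 3 stages together, 22 of the 37 genes tested varied, 59.5% of them, against 28.3% of all genes tested (edgeR quasi-likelihood F test, adjusted p of at most 0.05). In the comparisons of 2 stages, a gene was called when its adjusted p in the edgeR quasi-likelihood test was at most 0.05 and its log2 fold change at least 1 either way. In E11.5 vs. E10.5, 6 of the 36 genes tested were upregulated (Efna3, Epha3, Epha8, Robo2, Unc5c and Unc5d), 16.7% of them, against 3.46% of all genes tested. Another 3 were downregulated (Ephb1, Robo3 and Unc5a), 8.33% against 2.61%.

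In E12.5 vs. E11.5 fewer members were called. The 3 upregulated genes were Epha5, Ntn5 and Robo2, 8.57% of the 35 tested, against a background of 4.14%, and Epha8 alone was downregulated, 2.86% against 0.962%. Over the whole span, E12.5 vs. E10.5, 10 of 36 genes were upregulated (Efna1, Efna3, Efnb1, Epha5, Epha8, Ephb6, Robo2, Slit3, Unc5c and Unc5d), 27.8% against 9.97%, and Robo3 was downregulated, 2.78% against 5.08%. Without E10.5 replicate 3, 5 genes were upregulated and 3 downregulated in the first interval, and 8 were upregulated and 1 downregulated over the whole span. The shares of all genes given above are those of the fits with all libraries, and do not serve as a background for these counts. The 3 comparisons share their libraries in pairs, so their calls are not independent of each other.

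Libraries of 2 stages were separated in more members than were called. In E11.5 vs. E10.5 every E11.5 library lay above every E10.5 library for 21 of the 36 members, 58.3% against 18.4% of all genes tested, and below them for 8, 22.2% against 18.3%. In E12.5 vs. E11.5 the later libraries all lay above for 14 of 35, 40.0% against 18.4%, and below for 3, 8.57% against 16.9%. In E12.5 vs. E10.5 they lay above for 20 of 36, 55.6% against 22.0%, and below for 4, 11.1% against 20.4%. The median log2 fold change of the members was 0.35, 0.23 and 0.65 in the 3 comparisons in this order, against -0.03, 0.02 and -0.01 over all genes tested.

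Without E10.5 replicate 3 the same medians were 0.28 against -0.01 in the first interval and 0.46 against 0.02 over the whole span. Every later library then lay above for 58.3% of the members tested against 30.8% of all genes, and for 54.1% against 30.3%. The facial mesenchyme markers had median log2 fold changes of 0.87, 0.06 and 1.07 in the 3 comparisons, and of 0.61 in the first interval and 0.92 over the whole span without E10.5 replicate 3. No test of the members as a group was made.

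**Figure D3:**
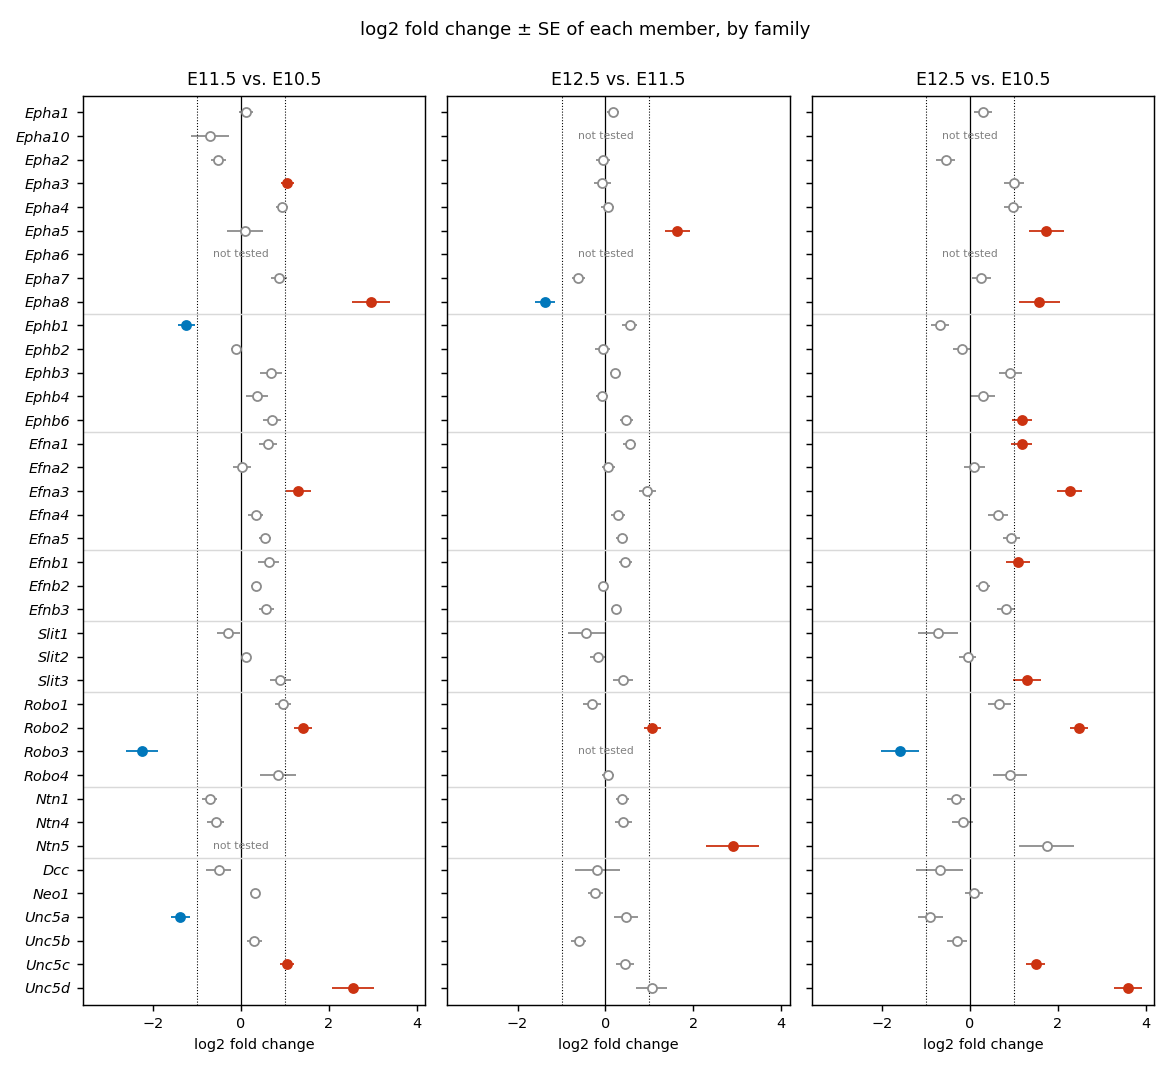
log2 ratio of the later stage to the earlier, with bars of 1 SE, for each member in the 3 comparisons, ordered by family, where red points were upregulated, blue points downregulated, open grey points not called, and dotted lines mark a log2 fold change of 1 either way. In E12.5 vs. E10.5, 10 genes are red and Robo3 alone is blue.

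Among the EphA receptors, Epha8 had the largest change. It was at 3.5, 2.38 and 0.743 CPM in the E10.5 libraries, 20.7, 14.7 and 16.2 CPM at E11.5 and 7.15, 8.29 and 4.35 CPM at E12.5. The 3 stages did not overlap, with E11.5 the highest and E10.5 the lowest. Epha8, a receptor known from axon guidance in the midbrain, rose 7.76-fold from E10.5 to E11.5 (log2 fold change 2.96 ± 0.43, adjusted p = 0.00536) and then fell 2.61-fold to E12.5 (-1.38 ± 0.23, adjusted p = 0.00367). At E12.5 it still lay 3-fold above E10.5 (1.58 ± 0.46, adjusted p = 0.0279), a call that was lost without E12.5 replicate 1 (adjusted p = 0.0927) or replicate 2 (adjusted p = 0.103). Without E10.5 replicate 3, the lowest library, the first rise was 2.55 on the log2 scale (adjusted p = 2.33e-06).

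Epha3, a receptor of ephrin-A5 in mesenchyme and in retinal axons, was at 44.8, 39.4 and 31.4 CPM at E10.5, 84.3, 72.4 and 83.8 CPM at E11.5 and 60.6, 103 and 66.1 CPM at E12.5. Both later stages lay above E10.5 in every library and overlapped each other. It rose 2.08-fold in the first interval (log2 fold change 1.06 ± 0.15, adjusted p = 0.00461), and without E10.5 replicate 3 the log2 fold change was 0.93, under the threshold (adjusted p = 9.47e-06). Over the whole span its fold was 2, with a log2 value of 0.9998 ± 0.23 (adjusted p = 0.0103) that missed the threshold and was called in 4 of the 6 fits without 1 library. Epha4, which binds ephrins of both classes, missed the fold threshold, at 0.93 ± 0.14 on the log2 scale in the first interval (adjusted p = 0.00586) and 0.99 ± 0.21 over the whole span (adjusted p = 0.00611). Its mean level was 121 ± 21.7, 230 ± 9.26 and 239 ± 49.7 CPM (SD, n = 3) at the 3 stages.

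Epha7 and Epha5 differed in timing. Epha7, a receptor that sorts cells at brain boundaries, was at 77.9, 73.9 and 48.2 CPM at E10.5, 133, 118 and 113 CPM at E11.5 and 78.5, 92.8 and 66.8 CPM at E12.5, so that E11.5 lay above both other stages in every library. Neither step passed the fold threshold for Epha7, with log2 fold changes of 0.87 ± 0.18 (adjusted p = 0.0197) and -0.62 ± 0.14 (adjusted p = 0.0179). Epha5, a receptor of forebrain neurons, was at 2.91, 0.986 and 2.48 CPM at E10.5, 2.9, 2.07 and 1.79 CPM at E11.5 and 7.43, 8.99 and 4.65 CPM at E12.5. The first 2 stages overlapped and E12.5 lay above both. Epha5 rose 3.11-fold in E12.5 vs. E11.5 (log2 fold change 1.64 ± 0.29, adjusted p = 0.00461), and the call was made in all 6 fits that left out 1 library.

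Of the other EphA receptors, Epha1, which is expressed in epithelia, had means of 15.5, 16.7 and 19 CPM and adjusted p-values of 0.299 to 0.7. Epha2, a receptor of epithelial cells, had 16.3, 11.4 and 11 CPM, and both later stages lay below E10.5 in every library with adjusted p-values of 0.0939 and 0.0905.

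EphB receptors divided by member. Ephb1, a receptor of ephrin-B ligands in neurons, was at 21.3, 25.7 and 31.7 CPM at E10.5, 13.1, 10.5 and 9.42 CPM at E11.5 and 16.7, 17 and 14.8 CPM at E12.5. No stage overlapped another, with E10.5 the highest and E11.5 the lowest. Ephb1 fell 2.38-fold in E11.5 vs. E10.5 (log2 fold change -1.25 ± 0.20, adjusted p = 0.00725), and in the next interval its log2 fold change was 0.55 ± 0.16 (adjusted p = 0.0502). Ephb6, a receptor whose kinase domain is inactive, was at 24.9, 21.2 and 14.2 CPM, then 31.8, 29.1 and 36.8 CPM and then 49.2, 47.5 and 40 CPM, each stage above the one before. Ephb6 rose 2.28-fold in E12.5 vs. E10.5 (log2 fold change 1.19 ± 0.23, adjusted p = 0.00333). Without E10.5 replicate 3 its value rounded to 1.00 and lay just under the threshold (adjusted p = 0.00242).

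The other EphB receptors were not called. Ephb2, which acts in palate and midline closure, had stage means of 136, 125 and 120 CPM. Ephb3, which often acts together with Ephb2, had 102, 164 and 192 CPM, with E10.5 replicate 3 at 59 CPM against 127 and 121 CPM, and a log2 fold change of 0.92 ± 0.27 in E12.5 vs. E10.5 (adjusted p = 0.0278). Ephb4 was at 268, 260 and 127 CPM at E10.5 and 219 to 311 CPM in the later libraries. The low value was again that of E10.5 replicate 3, in which the endothelial markers were low.

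**Figure D4:**
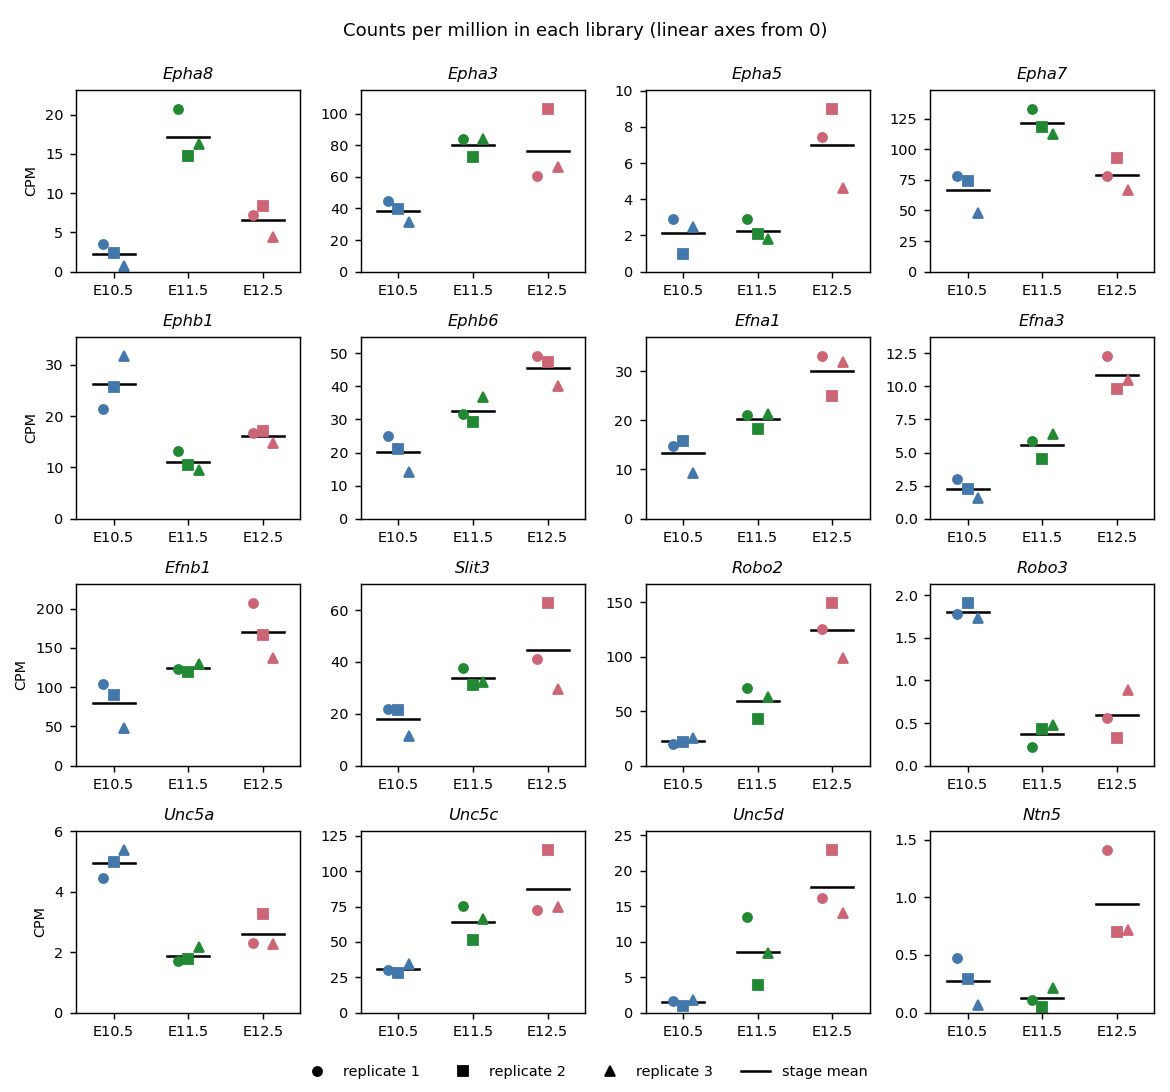
CPM in each library for the 16 members that were called in at least 1 comparison or whose successive changes differed, on linear axes from 0, with the symbol for the replicate number and a bar for the stage mean. Epha8 and Epha7 are highest at E11.5, Robo2, Efna3 and Unc5d are higher at each later stage, and Robo3, Ephb1 and Unc5a are highest at E10.5.

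Ephb1, Robo3 and Unc5a were the 3 members that fell together in E11.5 vs. E10.5, and Epha8 was the member with the largest rise in that interval. Their promoters are shown so that the genes that fell can be set beside the gene that rose. The sequences are those of RefSeq on GRCm38.p6, from upstream of the transcript start to shortly after it, written 5′ to 3′ on the strand of the gene, with the motifs searched in capitals.
Ephb1 (chr9:102354644-102354943, minus strand): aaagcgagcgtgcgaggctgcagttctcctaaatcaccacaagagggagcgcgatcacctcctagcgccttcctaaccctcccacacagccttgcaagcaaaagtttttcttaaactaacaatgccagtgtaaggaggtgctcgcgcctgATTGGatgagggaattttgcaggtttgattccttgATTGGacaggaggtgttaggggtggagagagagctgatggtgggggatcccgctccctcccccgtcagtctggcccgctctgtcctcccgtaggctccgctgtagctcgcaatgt
Robo3 (chr9:37433126-37433425, minus strand): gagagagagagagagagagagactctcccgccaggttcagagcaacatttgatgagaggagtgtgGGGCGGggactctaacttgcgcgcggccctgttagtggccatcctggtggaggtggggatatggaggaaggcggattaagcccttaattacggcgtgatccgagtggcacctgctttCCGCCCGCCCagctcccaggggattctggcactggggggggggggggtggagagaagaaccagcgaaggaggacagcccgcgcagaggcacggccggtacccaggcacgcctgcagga
Unc5a (chr13:54949161-54949460, plus strand): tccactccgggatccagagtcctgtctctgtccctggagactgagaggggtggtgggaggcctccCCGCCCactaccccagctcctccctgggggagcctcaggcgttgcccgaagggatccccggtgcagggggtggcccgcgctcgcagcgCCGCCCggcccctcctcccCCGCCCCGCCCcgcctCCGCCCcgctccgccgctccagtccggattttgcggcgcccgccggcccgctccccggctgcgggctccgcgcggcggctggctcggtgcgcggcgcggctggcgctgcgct
Epha8 (chr4:136956767-136957066, minus strand): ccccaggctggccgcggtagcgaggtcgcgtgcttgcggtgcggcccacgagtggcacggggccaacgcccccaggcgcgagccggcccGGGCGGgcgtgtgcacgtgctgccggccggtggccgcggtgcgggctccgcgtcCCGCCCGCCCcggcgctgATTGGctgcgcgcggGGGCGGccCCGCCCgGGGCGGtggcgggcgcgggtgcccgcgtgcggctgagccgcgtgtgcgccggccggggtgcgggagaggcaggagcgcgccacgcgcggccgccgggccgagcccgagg
The motifs were the GC box GGGCGG, the CCAAT box CCAAT and the TATA box TATAAA, each searched on both strands, so that CCGCCC and ATTGG are also in capitals, and motifs may touch or overlap. Of the 32851 promoter windows of this length in the RefSeq table, 35.7% held a GC box, 37.4% a CCAAT box and 13.6% a TATA box. Ephb1 held 2 CCAAT boxes and no GC box, at a GC content of 55.7%. Robo3 held 3 GC boxes at 63.3% GC, Unc5a 5 GC boxes at 78.3% GC, and Epha8 6 GC boxes and 1 CCAAT box at 84.3% GC. The TATA box letters were in none of the 4 windows. The 3 promoters of the genes that fell thus differ among themselves in these letters, and a match is a description of the window and not a binding site.

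All 5 ephrin-A ligands and all 3 ephrin-B ligands had log2 fold changes above 0 in the first interval and over the whole span, with medians of 0.55 and 0.94 for ephrin-A and 0.58 and 0.83 for ephrin-B. These medians include E10.5 replicate 3, the lowest E10.5 library for every ephrin except Efna5. For Efna2 the sign rested on E10.5 replicate 3, at 53.8 CPM against 95.9 and 94.8 CPM, and without it the values were -0.20 (adjusted p = 0.0323) and -0.12 (adjusted p = 0.65). The call was reached by Efna1, Efna3 and Efnb1 over the whole span, and by Efna3 in the first interval.

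Efna3, a ligand of EphA receptors in brain, was at 2.97, 2.26 and 1.55 CPM at E10.5, 5.86, 4.52 and 6.37 CPM at E11.5 and 12.3, 9.8 and 10.5 CPM at E12.5. Each stage lay above the one before in every library. Efna3 rose 4.82-fold in E12.5 vs. E10.5 (log2 fold change 2.27 ± 0.29, adjusted p = 2.69e-04), called in all 6 fits without 1 library. The first step was 1.30 ± 0.28 (adjusted p = 0.0232), and was lost without E10.5 replicate 2 (adjusted p = 0.0728), E11.5 replicate 1 (adjusted p = 0.108) or E11.5 replicate 3 (adjusted p = 0.113). The second was 0.96 ± 0.19 (adjusted p = 0.0086), under the fold threshold. Of the exon bases of Efna3, 14.1% are shared with a gene on the opposite strand, and whether reads were counted by strand is not stated.

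Efna1, a ligand induced in vessels and epithelia, was at 14.8, 15.7 and 9.28 CPM, then 21.2, 18.2 and 21.4 CPM and then 33.1, 25 and 31.8 CPM. Efnb1, the ephrin of the craniofrontonasal syndrome, was at 104, 89.6 and 47.4 CPM, then 123, 119 and 130 CPM and then 207, 166 and 137 CPM. In both genes no stage overlapped another, and E10.5 replicate 3 was the lowest of the 9 libraries. Efna1 rose 2.27-fold in E12.5 vs. E10.5 (log2 fold change 1.18 ± 0.24, adjusted p = 0.00462) and Efnb1 2.13-fold (1.09 ± 0.27, adjusted p = 0.0152). Both values fell below the fold threshold without that library, at 0.99 for Efna1 (adjusted p = 0.00365) and 0.82 for Efnb1 (adjusted p = 0.0113), and Efnb1 also lost its call without E12.5 replicate 1 (adjusted p = 0.0783).

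The other ephrins missed the call. Efna5, the main ligand of Epha3, had means of 51.1, 74.8 and 97.4 CPM, and its log2 fold change of 0.94 ± 0.19 in E12.5 vs. E10.5 (adjusted p = 0.00541) missed only the fold threshold. In E10.5 replicate 3 Efna5 was at 61.1 CPM, above the 46.3 and 45.9 CPM of the other E10.5 libraries, and without that library the value was 1.09 and called (adjusted p = 0.00148). Efnb3, an ephrin of the nervous system midline, had means of 55, 82 and 97.1 CPM and a value of 0.83 ± 0.20 in the same comparison (adjusted p = 0.0128). Efna2, Efna4 and Efnb2, the ligand of Ephb4 in vessels, had values of 0.10 ± 0.24, 0.63 ± 0.23 and 0.29 ± 0.16, with adjusted p-values of 0.801, 0.0649 and 0.216. For Efna4, 10.5% of the exon bases are shared with a gene on the opposite strand.

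Of the Slits, Slit3 was called over the whole span. It was at 21.8, 21.3 and 11.3 CPM at E10.5, 37.7, 31 and 32.2 CPM at E11.5 and 41.2, 62.7 and 29.5 CPM at E12.5. Both later stages lay above E10.5 in every library and overlapped each other. Slit3, a Slit needed in the diaphragm and kidney, rose 2.47-fold in E12.5 vs. E10.5 (log2 fold change 1.30 ± 0.31, adjusted p = 0.0118), and without E12.5 replicate 2, the highest library, the value was 0.97 (adjusted p = 0.0555). Slit2 had means of 75, 81.2 and 72 CPM and adjusted p-values of 0.504 to 0.881. Slit1, a Slit of the nervous system, had 2.15, 1.75 and 1.29 CPM and adjusted p-values of 0.275 to 0.51.

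Among the receptors of the Slits, Robo2 and Robo3 moved in opposite directions. Robo2, a receptor for Slits in axons and in the ureteric bud, was at 19.9, 21.4 and 25.4 CPM at E10.5, 71.2, 42.8 and 63 CPM at E11.5 and 125, 149 and 98.5 CPM at E12.5. No stage overlapped another, and E10.5 replicate 3 was the highest library of its stage. Robo2 rose 2.66-fold in the first interval (log2 fold change 1.41 ± 0.20, adjusted p = 0.00505) and 5.6-fold over the whole span (2.49 ± 0.21, adjusted p = 1.61e-05), both called in all 6 fits without 1 library. It was the only member called in all 3 comparisons in the same direction. Its second step was 2.1-fold (1.07 ± 0.20, adjusted p = 0.00669), and fell to 0.86 without replicate 2 of E11.5 and to 0.91 without that of E12.5, while without E12.5 replicate 1 it was 1.07 with an adjusted p of 0.051.

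Robo3, a divergent Robo that keeps commissural axons from responding to Slits too early, had 30, 33 and 28 counts at E10.5, 4, 9 and 9 at E11.5 and 10, 6 and 15 at E12.5. These are 1.78, 1.91 and 1.73 CPM, then 0.215, 0.432 and 0.474 CPM and then 0.563, 0.323 and 0.894 CPM. Every E10.5 library lay above every later one. Robo3 fell 4.74-fold in E11.5 vs. E10.5 (log2 standard error 0.37, adjusted p = 0.00848). The ratio of E11.5 to E10.5 in summed counts per library size was 0.208, with an exact 95% interval of 0.124 to 0.334 for counting error only. Over the whole span the log2 fold change was -1.60 ± 0.43 (adjusted p = 0.0211), and the call was lost without E10.5 replicate 2 (adjusted p = 0.0634), E12.5 replicate 1 (adjusted p = 0.0875) or E12.5 replicate 2 (adjusted p = 0.0682). The forebrain and eye markers, 339 to 456 CPM at E10.5 and 109 to 179 CPM later, moved with Robo3, Ephb1 and Unc5a in E11.5 vs. E10.5, and the part of that tissue in these falls was not tested.

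Robo1, the Robo with the highest level, was at 195, 175 and 119 CPM at E10.5, 354, 282 and 315 CPM at E11.5 and 222, 357 and 193 CPM at E12.5. Its log2 fold change of 0.96 ± 0.19 in E11.5 vs. E10.5 (adjusted p = 0.0154) missed only the fold threshold. The E12.5 libraries spread widely, with replicate 2 the highest. Robo4, the Robo of endothelial cells, was at 12, 11.7 and 3.22 CPM at E10.5 and 14.9 to 18.3 CPM in all later libraries, with a log2 fold change of 0.84 ± 0.41 in the first interval (adjusted p = 0.226). The low value again came from E10.5 replicate 3.

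Of the netrins, Ntn1 and Ntn4 were tested in the first interval and not called, and Ntn5 was not tested there. Ntn1 was at 50.9, 39 and 60.6 CPM at E10.5, 28.9, 29.1 and 33.5 CPM at E11.5 and 38.3, 46.6 and 34.8 CPM at E12.5. Every E11.5 library lay below every library of the other stages, but the log2 fold changes of -0.72 ± 0.17 (adjusted p = 0.034) and 0.39 ± 0.15 (adjusted p = 0.107) did not reach the fold threshold. Ntn4, a netrin of basement membranes, was lowest at E11.5 in the same way, at means of 7.02, 4.71 and 6.26 CPM, with adjusted p-values of 0.0976 and 0.173 for the 2 successive steps.

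Ntn5, a netrin of proliferating and boundary cap cells, had 8, 5 and 1 counts at E10.5, 2, 1 and 4 at E11.5 and 25, 13 and 12 at E12.5. The E12.5 libraries lay above all others, and the first 2 stages overlapped. Ntn5 was called upregulated in E12.5 vs. E11.5 (adjusted p = 0.0111), a call lost without E11.5 replicate 2 (adjusted p = 0.0663) or E12.5 replicate 1 (adjusted p = 0.0693). The fitted fold is not given at these counts. The ratio of the summed counts per library size was 7.85, with an exact 95% interval of 3.54 to 20.5 for counting error only. Of its exon bases, 23.4% are shared with a gene on the opposite strand.

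The Unc5 receptors, which turn a netrin signal into repulsion, showed changes in both directions. Unc5d was at 1.6, 0.986 and 1.79 CPM at E10.5, 13.5, 3.84 and 8.37 CPM at E11.5 and 16.2, 22.9 and 14.1 CPM at E12.5. No stage overlapped another. Unc5d rose 12.2-fold in E12.5 vs. E10.5 (log2 fold change 3.60 ± 0.32, adjusted p = 2.17e-05), the largest change of any member over the whole span, and the call was made in all 6 fits without 1 library. In the first interval the E11.5 libraries ranged from 3.84 to 13.5 CPM and the log2 fold change was 2.55 ± 0.48 (adjusted p = 0.014), a call lost without E10.5 replicate 2 (adjusted p = 0.0519), E11.5 replicate 1 (adjusted p = 0.061) or E11.5 replicate 3 (adjusted p = 0.0573). In the second it was 1.05 ± 0.35 and not called (adjusted p = 0.0777).

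Unc5c, mutated in mice with misplaced cerebellar neurons, was at 30.4, 28 and 34.7 CPM at E10.5, 75.6, 51.1 and 65.9 CPM at E11.5 and 72.4, 115 and 74.7 CPM at E12.5. Both later stages lay above E10.5 in every library and overlapped each other. Unc5c rose 2.07-fold in the first interval (log2 fold change 1.05 ± 0.16, adjusted p = 0.00722) and 2.83-fold over the whole span (SE 0.22 on the log2 scale, adjusted p = 6.38e-04), and the first value was below the threshold without E10.5 replicate 2 (0.98) and also without replicate 1 of E11.5 (0.92). In Unc5c and Unc5d, as in Robo2, E10.5 replicate 3 was the highest library of its stage, so that the change was larger without it, at 1.59 for Unc5c and 3.78 for Unc5d in E12.5 vs. E10.5.

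Unc5a, a netrin receptor of spinal cord and other neurons, was at 4.45, 4.99 and 5.38 CPM at E10.5, 1.72, 1.78 and 2.16 CPM at E11.5 and 2.31, 3.28 and 2.26 CPM at E12.5. Every later library lay below every E10.5 library, and E11.5 lay below E12.5. Unc5a fell 2.61-fold in E11.5 vs. E10.5 (log2 fold change -1.38 ± 0.22, adjusted p = 0.00739), and without E11.5 replicate 1 the value was -1.32 with an adjusted p of 0.0543. Unc5b, the Unc5 receptor of vessels, had means of 126, 156 and 102 CPM, and a log2 fold change of -0.61 ± 0.17 in E12.5 vs. E11.5 (adjusted p = 0.0398) that missed the fold threshold.

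Neo1, or neogenin, a receptor for netrins and for repulsive guidance molecules, had means of 193, 240 and 205 CPM and adjusted p-values of 0.103 to 0.775. Dcc, the main attractive netrin receptor, was low throughout, at 3.38, 5.1 and 5.51 CPM at E10.5, 4.19, 3.12 and 2.53 CPM at E11.5 and 1.74, 5.87 and 0.953 CPM at E12.5. At E12.5 replicate 2 lay above all other libraries and the other two below them. Dcc was not called in any comparison (adjusted p = 0.283 to 0.833). Without E12.5 replicate 2 it was called downregulated, at -1.28 on the log2 scale in the second interval (adjusted p = 0.0207) and -1.77 over the whole span (adjusted p = 0.0179).

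Whether the change in the second interval differed from that in the first was tested for each gene on all 9 libraries, as the second log2 change minus the first. For 3 of the 37 genes it did, 8.11% against 1.18% of all genes tested. Epha8 had the largest difference, at -4.33 ± 0.62 (adjusted p = 0.00551), a rise followed by a fall. Epha7 followed the same course at -1.48 ± 0.31 (adjusted p = 0.0435), and Ephb1 the opposite course at 1.81 ± 0.34 (adjusted p = 0.0287). In the 9 fits without 1 library, the call was made 8 times for Epha8, 3 times for Epha7 and 5 times for Ephb1. For Unc5a, Robo3 and Ntn1, which were also lowest at E11.5 by their means, the differences were 1.86 ± 0.45, 2.89 ± 0.83 and 1.11 ± 0.32 and did not pass (adjusted p = 0.0736, 0.138 and 0.134).

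Partners of these pathways were read from lists. Of 26 signalling partners of Ephs and ephrins, 25, 24 and 25 were tested in the first interval, the second interval and the whole span. Ngef, the exchange factor ephexin that acts below EphA receptors, fell in the first interval (log2 fold change -3.01 ± 0.39, adjusted p = 0.00344) and over the whole span (-2.42 ± 0.51, adjusted p = 0.00617). Its mean level went from 2.66 CPM to 0.323 and 0.485 CPM. Vav2, another exchange factor, fell over the whole span (-1.10 ± 0.18, adjusted p = 0.00138), from 64.9 to 39.3 and 30.1 CPM. In E12.5 vs. E11.5, edgeR called 0 of the 24, and DESeq2 called 0. Of these, 7 had an unadjusted p under 0.05, as did 29.6% of all genes tested. The median log2 fold changes of this list were 0.07, -0.13 and 0.04. The shares of all genes tested are 3.46% up and 2.61% down in the first interval, 4.14% and 0.962% in the second and 9.97% and 5.08% over the whole span. The same genes were called without E10.5 replicate 3, Ngef at -2.73 and -2.15 and Vav2 at -1.11.

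All 17 partners of Slits and Robos, which include the srGAPs and Ena/VASP proteins that act on actin, were tested in each comparison. Of these, edgeR called 0 in each, as did DESeq2, and 5, 6 and 6 had an unadjusted p under 0.05, which 27.9%, 29.6% and 37.2% of all genes tested had. The median log2 fold changes were -0.05, -0.15 and -0.28. Cxcr4, a chemokine receptor that Slit signalling dampens, had the value 0.86 ± 0.26 in E12.5 vs. E10.5 (adjusted p = 0.033), and Usp33, which deubiquitinates Robo1, -0.79 ± 0.22 (adjusted p = 0.0236), both under the fold threshold. Without E10.5 replicate 3, Cxcr4 was upregulated over the whole span at 1.20 (adjusted p = 0.00135).

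Of 26 genes listed as partners of netrins and their receptors, the netrin-G genes Ntng1 and Ntng2 included, 24 were tested in each comparison. Flrt2, a membrane ligand of Unc5d, and Ntng1, netrin-G1, were upregulated in E11.5 vs. E10.5 and Ntng2 was downregulated. Flrt1 and Ablim3 were upregulated and Plekhh1 downregulated in E12.5 vs. E11.5. Over the whole span Draxin, Flrt1, Flrt2, Ntng1, Ablim3 and Prkca were upregulated, 6 of 24 beside 9.97% of all genes, and Plekhh1 was downregulated. DESeq2 called 3, 3 and 6 of the genes of this list in the 3 comparisons, and the call it did not make was Ablim3 over the whole span (adjusted p = 0.15). Without E10.5 replicate 3, Flrt1 was also upregulated in the first interval (1.31, adjusted p = 0.00373), and Flrt2 was at 0.87 over the whole span and not called (adjusted p = 0.01). Flrt2 went from a mean of 108 CPM to 271 and 219 CPM (first interval 1.33 ± 0.17, adjusted p = 0.00372), while Flrt1 went from 2.03 to 3.72 and 8.9 CPM (whole span 2.14 ± 0.41, adjusted p = 0.00376). Draxin, a secreted protein that binds netrin and Dcc, went from 4.96 to 9.85 and 12 CPM (1.28 ± 0.30, adjusted p = 0.00986), and Plekhh1 from 31.2 to 15.9 and 5.88 CPM (-2.39 ± 0.29, adjusted p = 1.90e-04).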

How the data were processed

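Lambdoidal junction tissue was sequenced in 9 libraries, 3 per stage. The authors mapped reads to GRCm38/mm10 with HISAT2 2.0.5 and deposited raw counts per gene, as whole numbers without normalization, counted with featureCounts. The deposited FPKM values were computed by the authors from counts and gene length and were not used here. The deposited columns of the authors' own comparisons hold group means, fold changes and p-values and were not used. Whether counting used strand is not given in the sources used here. The exact intervals cover counting error only and treat each read as independent. Counts are PCR-amplified reads, so these intervals may be too narrow.

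Members were chosen by gene symbol, and the members, the partner lists and the marker lists were chosen with earlier results of these data known. Stages were fitted in pairs on their 6 libraries in R 4.3.3 with edgeR 4.0.16 (filterByExpr, TMM, quasi-likelihood test, Benjamini-Hochberg adjustment over all genes tested), and the 3 stages on all 9 libraries. The SE is the size of the log2 fold change over the root of F. CPM use TMM library sizes of all 9 libraries. Called genes have an adjusted p of at most 0.05 and a log2 fold change of at least 1 either way. Per-library values are given for every member called in a comparison or with differing successive changes, and other members or partners singled out were chosen after their values were seen. The script was tested on simulated data. DESeq2 1.42.0, its size factors, a filter of at least 1 count, the replicate number as a block, a fit of all 9 libraries, removal of the GC trend (lowess, span 0.3), no fold-change threshold and leaving out each library were the alternatives. Leaving out E10.5 replicate 3 in the medians, in the partner and marker lists, in the ratio of Epha6 and in the counts of libraries that do not overlap was added after seeing the data. All 38 members are in GENCODE M21, 37 with the deposited coordinates (not Dcc), and 10 share exon bases with another gene. Figures were made with matplotlib 3.10.9.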

Additional observations from a re-analysis of the deposited data

Results flagged for a closer look

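For 3 members the change in the second interval differed from the change in the first, by a test of the difference itself on all 9 libraries. The second log2 change minus the first was -4.33 for Epha8, -1.48 for Epha7 and 1.81 for Ephb1. The E11.5 libraries lay above all others for Epha8 and Epha7 and below all others for Ephb1. In the 9 fits without 1 library, the call was made 8 times for Epha8, 3 times for Epha7 and 5 times for Ephb1. Without E11.5 replicate 1 it was made for none of them.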

How the results depend on the processing

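The 24 calls of members over the 3 comparisons were all made again with DESeq2, with its size factors in edgeR, with all genes of at least 1 count, in the fit of all 9 libraries and with the GC trend removed, with or without the replicate block. In all 6 fits that left out 1 library, 11 of the 24 were made again, and without E10.5 replicate 3, 16 of the 20 that use that stage. With no fold-change threshold, the upregulated members were 10 in the first interval and 6 in the second, and the downregulated 3 in the second interval and 3 over the whole span. Epha3, Epha4, Ephb3, Efna5 and Efnb3 then joined the upregulated members over the whole span, and Ntn1 the downregulated in the first interval. No share of all genes is given for the counts under the alternatives in this paragraph, so they are not read against a background. With the GC trend removed, with or without the replicate block, 2 were downregulated in E12.5 vs. E10.5, Robo3 and Unc5a. Leaving out 1 library gave 3 to 8 upregulated and 2 to 3 downregulated members in the first interval, 1 to 4 and 1 to 2 in the second, 8 to 14 and 0 to 2 over the whole span, and 0 to 5 members whose successive changes differed (0 without E11.5 replicate 1). Leaving out 1 library, the log2 fold change of Epha3 in the second interval ranged from -0.35 to 0.08 and turned positive without E12.5 replicate 1 (0.08) or 3 (0.02), and that of Epha5 in the first from -0.26 to 0.39, turning negative without E10.5 replicate 2 (-0.26) and without replicate 1 of E11.5 (-0.13), and none of these values is called. Of 598 fold changes of the 16 named members under the alternatives, 547 kept their direction and their side of the threshold. The cause of the others was not tested. Libraries of different stages with the same replicate number had correlations of deviations of -0.151 to 0.22. Libraries with different numbers were not compared in this way, so whether the numbers pair the samples was not tested. With the replicate block, 6 members were upregulated and 3 downregulated in the first interval, 4 and 1 in the second, and 11 and 1 over the whole span. With 3 libraries per stage and few counts, changes of Epha6, Epha10, Ntn5 and Robo3 are measured least precisely.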
